A study of Mus musculus with 12 samples.

Results

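The 10 genes described here mark the activation states and the resident populations of macrophages, and they were read in the ear skin of mice injected with IL-17A, IL-36γ or both. Arg1, Nos2, Chil3 and Retnla are textbook markers of macrophage polarization, Mrc1, Cd163, Folr2 and Lyve1 mark resident tissue macrophages, and Trem2 and Gpnmb mark lipid-handling macrophages. They were chosen by name and matched by gene symbol to 10 of the 50684 genes of the count table. All 10 had enough counts to be among the 19408 genes tested. Female C57BL/6 mice, 8 weeks old, received intradermal injections into the ear pinna. The control group received PBS, 1 group received IL-17A, 1 received IL-36γ and 1 received IL-17A + IL-36γ. The dose is given as 1 µg of cytokine per ear in 5 µL. Whether the combined group received 1 µg of each cytokine or 1 µg in total is not stated. After 4 days RNA of a homogenised part of the ear was sequenced from 3 of the 5 mice of each group, which gave 12 libraries.

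Macrophages read their surroundings and adopt different programmes. Interferon-γ and microbial products drive classical activation, with the nitric oxide synthase encoded by Nos2 as its usual marker in mice, whereas IL-4 and IL-13 act through STAT6 to drive alternative activation, in which arginase 1 consumes the same substrate, arginine. Skin also holds long-lived resident macrophages that clear debris and scavenge proteins through endocytic receptors, and that population is joined by monocyte-derived cells when skin becomes inflamed. IL-17A and IL-36γ are psoriasis cytokines that act strongly on keratinocytes and on the recruitment of neutrophils.

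The macrophage markers did not move as 1 block. Throughout, a gene is said to have risen or fallen where edgeR's quasi-likelihood test gave an adjusted p below 0.05 (Benjamini-Hochberg over all genes tested) and a log2 fold change beyond 1 in either direction. Against PBS, IL-17A + IL-36γ raised 6 of the 10 genes (Arg1, Nos2, Chil3, Mrc1, Folr2 and Trem2) and lowered 1 (Retnla), where 7.35% of all genes tested rose and 6.06% fell. IL-36γ alone raised 3 of 10 (Chil3, Mrc1 and Folr2), where 5.11% of all genes rose, and IL-17A alone raised 1 of 10 (Chil3), where 1.07% of all genes rose. Neither single cytokine lowered any of the 10, where 1.98% (IL-36γ) and 1.03% (IL-17A) of all genes fell. Markers of both activation programmes thus lay among the genes that rose after the combination, and so did resident and lipid-associated markers. For the classical programme this rested on Nos2 alone, at 12 to 32 counts after the combination. Its call was lost in 5 of 18 other settings, which include fits with a library left out. Cd163, Lyve1 and Gpnmb did not pass both thresholds in any of the 3 comparisons with PBS.

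The libraries held between 25293468 and 34759293 counts. The lists of other macrophage genes were present in all of them: the 12 pan-macrophage genes summed to 680 to 792 CPM in the PBS group and to 1590 to 1650 CPM after IL-17A + IL-36γ, where CPM are counts scaled to a common library total after TMM normalisation. Because pieces of ear with all their cell types were homogenised, more or fewer cells of a type and more or less RNA per cell cannot be told apart. The pieces of ear also differed in their other tissues: 10 skeletal muscle genes summed to between 265 and 3510 CPM, and PBS replicate 1 (421 CPM) lay far below PBS replicates 2 and 3 (3510 and 3040 CPM). Where leaving out that library changed a call or a sign among the 10 genes, the change is given. Genes of the lists, those of muscle and fat among them, are given with it only. The spread is that between 3 mice of each group.

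The DNA before each gene's start was read for 7 of the 10 genes from RefSeq (GRCm38.p6), as the 250 bases before the RefSeq start. That start can differ from the gene start of the GENCODE annotation, from which gene positions are given here. The Retnla and Mrc1 windows and that of Folr2 at chr7:101857191-101857440 end inside the GENCODE gene. The other Folr2 window (chr7:101845332-101845581) lies wholly inside it. Arg1, Nos2 and Lyve1 had no entry. Folr2 had 2, so 8 promoters were searched on both strands for 7 motifs, each counted by itself even where motifs overlapped. GAGGAA is the core bound by the macrophage factor PU.1, TTCNNNNGAA has the spacing preferred by STAT6, and TTCNNNGAA that of other STAT factors. TTGCNNAA was searched for C/EBP factors and GGGNNNNNCC for NF-κB. The AP-1 motif was written as TGANTCA, and the core promoter element as TATAAA. The promoters of Mrc1, Trem2 and Retnla are shown because they held GAGGAA, which 23.3% of all 32851 promoters of that length also held, and because Mrc1 and Trem2 rose together after IL-17A + IL-36γ while Retnla fell. Only the Retnla promoter held TTCNNNNGAA, which occurs in 5.85% of all promoters. Each sequence is printed 5′ to 3′ on the strand of its gene. Capitals mark TTCCTC, which is GAGGAA read on the other strand, and in Retnla also the longer match to TTCNNNNGAA.
Mrc1 (chr2:14229164-14229413, plus strand): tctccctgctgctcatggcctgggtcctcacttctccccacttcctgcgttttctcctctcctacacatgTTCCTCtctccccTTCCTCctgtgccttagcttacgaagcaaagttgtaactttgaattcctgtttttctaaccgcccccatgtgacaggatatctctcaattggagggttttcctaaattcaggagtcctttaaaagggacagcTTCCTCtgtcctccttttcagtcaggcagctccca
Trem2 (chr17:48346151-48346400, plus strand): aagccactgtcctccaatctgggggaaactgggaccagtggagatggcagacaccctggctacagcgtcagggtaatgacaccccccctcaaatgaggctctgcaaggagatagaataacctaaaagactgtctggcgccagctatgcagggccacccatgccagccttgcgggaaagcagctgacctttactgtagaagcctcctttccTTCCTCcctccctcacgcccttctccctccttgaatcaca
Retnla (chr16:48842359-48842608, plus strand): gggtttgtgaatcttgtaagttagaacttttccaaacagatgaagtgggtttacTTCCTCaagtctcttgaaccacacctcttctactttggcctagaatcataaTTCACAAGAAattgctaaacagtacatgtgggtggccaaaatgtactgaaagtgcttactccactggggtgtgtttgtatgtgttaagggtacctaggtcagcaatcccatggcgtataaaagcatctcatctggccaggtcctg
In Mrc1 the motif began 180, 167 and 35 bases before the start, in Trem2 40 bases before it, and in Retnla 196 bases before it, with TTCNNNNGAA at 145 bases. Among the 8, the core promoter element (12.4% of all promoters) and TTGCNNAA (9.56%) occurred in the Retnla promoter alone, and TTCNNNGAA (7.02%) in that of Chil3 alone. The AP-1 motif (6.75%) occurred for Trem2 and for Folr2, there in the window wholly inside the gene. GGGNNNNNCC (45.8%) occurred for Cd163, Chil3 and Mrc1. These matches are descriptions of letters in a window and say nothing of binding.

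**Figure D1:**
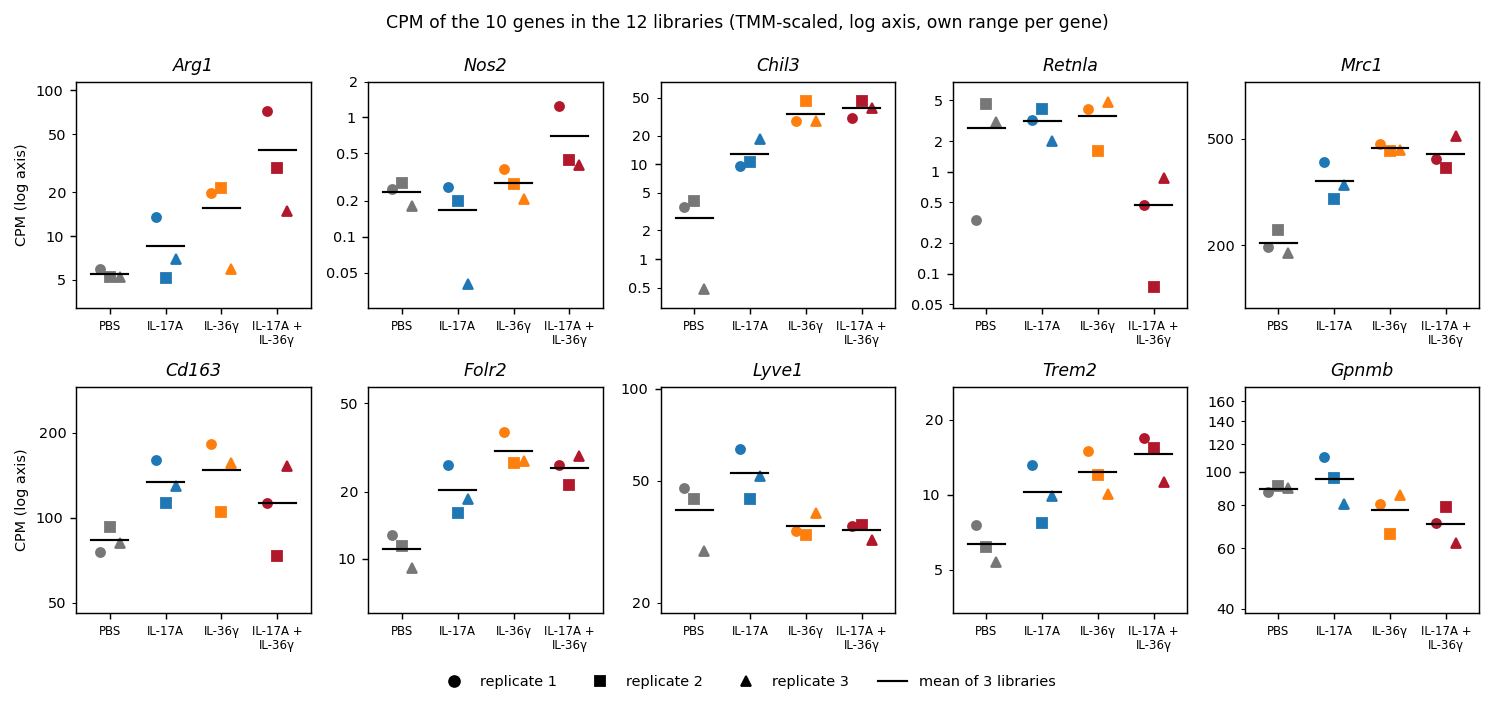
CPM (counts scaled to a common library total after TMM normalisation, log axis with its own range for each gene) of the 10 genes in the 12 libraries. Points are libraries, with a marker shape for each replicate number, and bars are means of 3 libraries. Chil3 rises through all 3 cytokine groups, Mrc1 and Folr2 lie above PBS in every cytokine library, Retnla is low in the 3 libraries of the combination and in PBS replicate 1, and Lyve1 and Gpnmb stay within a narrow range.

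Per length of transcript, Mrc1 was the most abundant of the 10 genes in every group, with a mean of 32.1 RPKM (CPM divided by the exon length in kilobases) in PBS ears and 68.8 RPKM after IL-17A + IL-36γ. Nos2 was the least abundant in every group, at 0.054 and 0.158 RPKM. Between these, PBS ears ordered the genes as Cd163 (15.2 RPKM), Lyve1 and Gpnmb (13.7 RPKM each), Folr2 (7.16), Retnla (4.47), Arg1 (2.45), Chil3 (1.64) and Trem2 (1.29). The combination reordered them: Chil3 moved from rank 8 to rank 2 (23.6 RPKM), Arg1 from rank 7 to rank 4 (17.3 RPKM) and Retnla from rank 6 to rank 9 (0.785 RPKM). The CPM by library show that these shifts are not all equally firm.

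Arg1 encodes arginase 1, the cytosolic enzyme that splits arginine into ornithine and urea (GRCm38 chromosome 10, 24915221 to 24927484, minus strand). The PBS libraries held 5.95, 5.21 and 5.21 CPM, and the IL-17A libraries 13.5, 5.12 and 6.92 CPM. After IL-36γ the values were 19.8, 21.3 and 5.92 CPM, and after IL-17A + IL-36γ they were 71.7, 29.3 and 14.9 CPM. All 3 libraries of the combination lay above all 3 PBS libraries, whereas IL-17A replicate 2 lay just below the PBS range and IL-36γ replicate 3 within it. The combination raised Arg1 by 2.82 ± 0.59 on the log2 scale (SE, 7.06-fold, adjusted p = 0.00239) against PBS. It was also higher by 2.18 ± 0.57 than after IL-17A alone (adjusted p = 0.013), a call that did not hold without replicate 1 of the combination (1.38, adjusted p = 0.0699) or without IL-17A replicate 2 (1.94, adjusted p = 0.0563). For IL-36γ alone the log2 fold change was 1.52 ± 0.58 with adjusted p = 0.0664, which became 1.91 with adjusted p = 0.0247 without IL-36γ replicate 3, the low library. Leaving out replicate 1 of the combination, the highest library, lowered the change against PBS to 2.02, and the call held (adjusted p = 0.0109).

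Nos2 encodes inducible nitric oxide synthase, the marker of classical activation that competes with arginase for arginine (chromosome 11, 78920787 to 78960254, plus strand). It was close to the limit of detection: 6 to 10 counts in the PBS libraries, 1 to 7 with IL-17A, 6 to 11 with IL-36γ, and 32, 12 and 12 with both cytokines. In CPM the PBS libraries held 0.249, 0.283 and 0.182 and those of the combination 1.25, 0.439 and 0.401. The 3 libraries of the combination were the 3 highest of the 12. Against PBS the log2 fold change was 1.5 ± 0.51 (adjusted p = 0.0304), and against IL-17A alone it was 1.98 ± 0.56 (adjusted p = 0.019). Both calls rested on few counts: without replicate 1 of the combination the change against PBS was 0.80 (adjusted p = 0.196) and that against IL-17A 1.28 (adjusted p = 0.0891). The first was also lost without any 1 of the PBS libraries (1.36 to 1.65, adjusted p from 0.0504 to 0.0965), and the second without IL-17A replicate 2 (adjusted p = 0.0506) or 3 (adjusted p = 0.0595).

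Chil3 encodes the chitinase-like lectin Ym1, a marker of alternatively activated macrophages that monocytes and neutrophils also express (chromosome 3, 106147554 to 106167564, minus strand). It had the largest fold changes of the 10 genes against PBS for both single cytokines and for the combination. The PBS libraries held 3.52, 4.05 and 0.485 CPM. Ears given IL-17A held 9.66, 10.6 and 18.4 CPM, ears given IL-36γ 28.2, 45.8 and 28.2 CPM, and ears given both 30.4, 46.3 and 38.9 CPM. Every cytokine library lay above every PBS library, and every library with IL-36γ lay above every library with IL-17A alone. The log2 fold changes against PBS were 2.25 ± 0.49 for IL-17A (adjusted p = 0.0229), 3.65 ± 0.49 for IL-36γ (adjusted p = 0.000389) and 3.83 ± 0.49 for the combination (14.2-fold, adjusted p = 0.000121). The combination exceeded IL-17A by 1.58 ± 0.44 (adjusted p = 0.0163) and differed from IL-36γ by 0.18 with a 95% interval from -0.73 to 1.09. PBS replicate 3 was low, at 16 counts against 127 and 143, and without it the rise after IL-17A was 1.76 (adjusted p = 0.0761). That call was also lost without IL-17A replicate 1 (adjusted p = 0.0806). The difference between the combination and IL-17A was lost without IL-17A replicate 1 or 2 or replicate 2 of the combination (1.43 to 1.48, adjusted p from 0.0504 to 0.0632). Of the 76-base windows in its transcripts, 7.54% also occur in the near-identical Chil4 and 5.11% in Gm6522. Chil4 itself had means between 0.00944 and 0.301 CPM in the 4 groups.

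Retnla encodes the resistin-like secreted protein RELMα (Fizz1), an IL-4-induced marker of alternative activation that fat tissue also expresses (chromosome 16, 48842551 to 48844461, plus strand). It went the other way. The PBS libraries held 0.332, 4.62 and 3.09 CPM, those of IL-17A 3.23, 4.09 and 2.01 CPM, and those of IL-36γ 4.09, 1.61 and 4.79 CPM. With both cytokines the libraries held only 0.468, 0.0732 and 0.869 CPM, which correspond to 12, 2 and 26 counts. The combination lay below all 6 libraries of the single cytokines, but PBS replicate 1 (12 counts) lay among the libraries of the combination. Retnla fell by 2.47 ± 0.84 on the log2 scale against PBS (adjusted p = 0.0317) and by 2.70 ± 0.84 against IL-17A alone (adjusted p = 0.0287). Against IL-36γ alone the difference was -2.85 ± 0.84 with adjusted p = 0.175. Without PBS replicate 1 the change against PBS was -3.00 (adjusted p = 0.00175). That against PBS was lost without PBS replicate 2 (-1.81, adjusted p = 0.132), PBS replicate 3 (-2.36, adjusted p = 0.0754), or replicate 1 (-2.46, adjusted p = 0.0856) or 2 (-1.99, adjusted p = 0.0973) of the combination, and in a fit of those 2 groups alone (-2.48, adjusted p = 0.0739). That against IL-17A was lost without IL-17A replicate 1 or 2 or replicate 1 or 2 of the combination (adjusted p from 0.057 to 0.0951).

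Muscle and fat genes moved with Retnla. PBS replicate 1, the PBS library with the least Retnla, was also the PBS library with the lowest sum of skeletal muscle genes (421 CPM) and of adipocyte genes (360 CPM). The 8 adipocyte genes other than Retnla summed to 360, 509 and 535 CPM in PBS ears and to 154, 101 and 234 CPM after IL-17A + IL-36γ, and all 8 fell, among them Lep, the hormone leptin (-2.35 on the log2 scale, adjusted p = 0.00162), and the adipose gene Retn, resistin (-2.15, adjusted p = 0.00238). The skeletal muscle sum was 433, 265 and 1370 CPM after the combination, and 2 of its 10 genes fell against PBS, Actn3 and Myh1. The genes nearest to Retnla over the 12 libraries included the muscle genes Ckm (creatine kinase) and, with a prior count of 2 but not of 0.5, Atp2a1 (the calcium pump of fast muscle fibres). The part of muscle and fat content in the fall of Retnla was not tested.

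**Figure D2:**
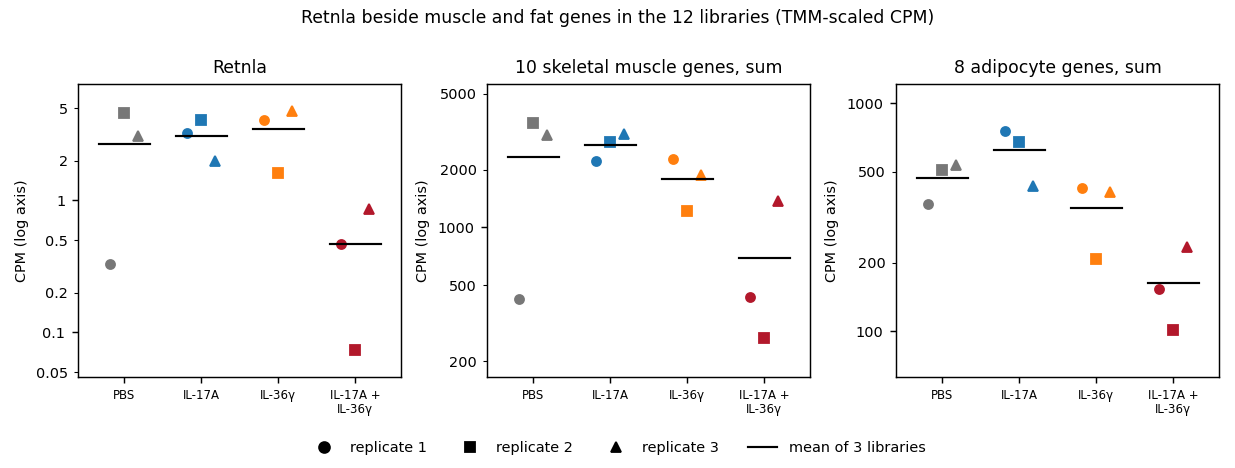
CPM (log axes) of Retnla, of the sum of 10 skeletal muscle genes and of the sum of 8 adipocyte genes in the 12 libraries. Points are libraries, shaped by replicate number, and bars are means of 3 libraries. PBS replicate 1 is the lowest PBS library in all 3 panels, and replicate 2 of the combination is the lowest of the 12 libraries in all 3.

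Mrc1, Cd163 and Folr2 are surface receptors of resident macrophages. Mrc1 encodes the mannose receptor CD206, which takes up mannose-bearing glycoproteins (chromosome 2, 14229392 to 14332057, plus strand). PBS libraries held 198, 228 and 187 CPM, IL-17A libraries 410, 298 and 336 CPM, IL-36γ libraries 475, 450 and 452 CPM, and libraries of the combination 419, 387 and 509 CPM. All 9 cytokine libraries lay above all PBS libraries, and those of IL-36γ and of the combination overlapped. Mrc1 rose by 1.17 ± 0.13 after IL-36γ (2.25-fold, adjusted p = 0.00012) and by 1.10 ± 0.13 after the combination (2.14-fold, adjusted p = 7.06e-05). Without replicate 3 of the combination, or with scaling by library size only, the latter passed the p threshold but not the fold threshold (0.99 and 0.96). After IL-17A alone it was higher by 0.77 ± 0.13 (adjusted p = 0.0132), which is below the fold threshold.

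Folr2 encodes folate receptor β, a marker of resident perivascular macrophages (chromosome 7, 101839988 to 101857194, minus strand). It followed Mrc1 closely, with 12.8, 11.4 and 9.09 CPM in PBS libraries, 26.3, 16.1 and 18.5 CPM in ears given IL-17A, 37.1, 27 and 27.5 CPM in ears given IL-36γ, and 26.3, 21.4 and 28.9 CPM in ears given both. All cytokine libraries again lay above PBS. Folr2 rose by 1.46 ± 0.20 after IL-36γ (adjusted p = 0.000416) and by 1.21 ± 0.20 after the combination (adjusted p = 0.000557), and was 0.87 ± 0.20 higher after IL-17A (adjusted p = 0.0258), below the fold threshold. Its exons overlap those of the antisense gene Gm10602 over 975 bases, and Gm10602 had 29 to 56 counts per library. The strand setting of the counting is not given in the sources used here, so the reads of both genes may not be fully separated.

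Cd163 encodes the haemoglobin-haptoglobin scavenger receptor (chromosome 6, 124304656 to 124330527, plus strand). PBS libraries held 75.7, 92.6 and 81.1 CPM, IL-17A libraries 160, 113 and 130 CPM, IL-36γ libraries 182, 105 and 156 CPM, and those of the combination 113, 73.2 and 153 CPM. Both single cytokines lay above PBS without overlap, while replicate 2 of the combination lay below all PBS libraries. The log2 fold changes were 0.69 ± 0.25 for IL-17A (adjusted p = 0.0845), 0.83 ± 0.25 for IL-36γ (adjusted p = 0.0266) and 0.44 ± 0.25 for the combination (adjusted p = 0.162). None passed both thresholds, but without IL-36γ replicate 2 that of IL-36γ did (1.03, adjusted p = 0.0166).

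Lyve1 encodes a hyaluronan receptor shared by resident macrophages and lymphatic endothelium (chromosome 7, 110850607 to 110863239, minus strand). It separated from Mrc1, Folr2 and Cd163. PBS libraries held 47.3, 43.6 and 29.5 CPM, IL-17A libraries 63.4, 43.6 and 51.7 CPM, IL-36γ libraries 34.2, 33.3 and 39.3 CPM, and those of the combination 35.7, 35.9 and 32 CPM. The libraries with IL-36γ lay within the PBS range, and below every library of IL-17A alone. Against PBS the change was 0.40 ± 0.17 for IL-17A (adjusted p = 0.126), -0.17 ± 0.17 for IL-36γ (adjusted p = 0.447) and -0.22 ± 0.17 for the combination (adjusted p = 0.304, 95% interval from -0.58 to 0.14). The combination was 0.62 lower than IL-17A (log2 fold change -0.62 ± 0.17, adjusted p = 0.0149), which is below the fold threshold. Of 5 other lymphatic endothelial genes tested, 1, Reln, fell after the combination (-1.06, adjusted p = 0.000126), and the 6 of that list summed to 202 to 220 CPM in PBS libraries, 143 to 182 CPM with IL-36γ and 121 to 139 CPM with both cytokines. Ccl21a of that list was at 0 in all libraries. The share of Lyve1 from either cell type was not tested.

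Trem2 and Gpnmb are both known from lipid-associated macrophages but moved apart. Trem2 encodes the lipid-sensing receptor that signals through Tyrobp (chromosome 17, 48346401 to 48354147, plus strand). It held 7.59, 6.17 and 5.36 CPM in PBS libraries, 13.1, 7.71 and 9.86 CPM in ears given IL-17A, 14.9, 12 and 10.1 CPM in ears given IL-36γ, and 16.9, 15.4 and 11.2 CPM in ears given both. All cytokine libraries lay above PBS. Trem2 rose by 1.18 ± 0.22 after the combination (2.27-fold, adjusted p = 0.00128) and was 0.95 ± 0.22 higher after IL-36γ (adjusted p = 0.00877), just below the fold threshold, which it passed without PBS replicate 1 (1.10) or IL-36γ replicate 3 (1.08). After IL-17A the change was 0.68 ± 0.22 (adjusted p = 0.0689).

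Gpnmb encodes a glycoprotein of lysosomes and melanosomes that melanocytes also express (chromosome 6, 49036546 to 49070929, plus strand). It was the steadiest of the 10 genes: 87, 91.1 and 89.6 CPM in PBS libraries, 110, 95.9 and 80.3 CPM in ears given IL-17A, 80.7, 65.9 and 85.4 CPM in ears given IL-36γ, and 71, 78.7 and 62.1 CPM in ears given both. Libraries with IL-36γ lay below all PBS libraries, by a small amount. The log2 fold change of the combination was -0.34 ± 0.12 (adjusted p = 0.0435) and that of IL-36γ was -0.21 ± 0.12 (adjusted p = 0.225). The 7 melanocyte genes summed to 140 to 168 CPM in PBS libraries and to 82.4 to 91.2 CPM after the combination, and 2 of them, the pigment genes Pmel (-1.32, adjusted p = 1.97e-05) and Tyrp1 (-1.27, adjusted p = 7.71e-05), fell. The part of melanocyte RNA in the level of Gpnmb was not tested.

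**Figure D3:**
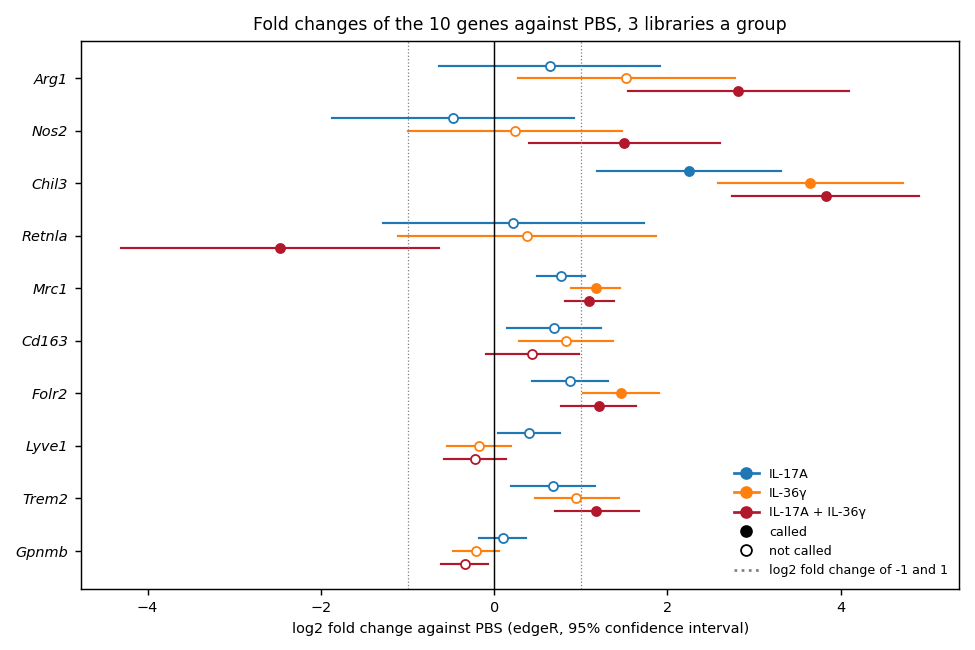
log2 fold changes of the 10 genes against PBS for the 3 cytokine groups (edgeR, all 12 libraries in 1 fit), with 95% confidence intervals as lines. Filled points passed both thresholds (adjusted p below 0.05 and a log2 fold change beyond 1), and dotted lines mark -1 and 1. Chil3 has the largest changes, and the intervals of Arg1, Nos2 and Retnla are the widest. Retnla alone passes both thresholds downwards, and only after the combination. Gpnmb after the combination also has a negative interval, from -0.61 to -0.07.

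Read across the 3 comparisons, which share the PBS libraries and are shown in the plot of fold changes, the median log2 fold change of the 10 genes was 0.66 with IL-17A, 0.89 with IL-36γ and 1.14 with both, beside medians of 0.04, -0.02 and -0.03 over all genes. With the p threshold alone, 3, 5 and 8 of the 10 passed, beside 10.9%, 28.4% and 44.6% of all genes. The libraries of the treated group lay wholly above PBS for 5, 5 and 6 of the 10 genes, where this held for 19.6%, 22.4% and 27% of all genes, and wholly below for 0, 1 and 1, where it held for 14%, 19.2% and 25.6%. These counts are descriptions.

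The direct comparisons ask what each cytokine added to the other. The dose of each cytokine in the combination is not stated, so an added cytokine and a lower dose of the other cannot be told apart. Added to IL-17A, IL-36γ raised Arg1, Nos2 and Chil3 and lowered Retnla, thus 3 and 1 of the 10 genes, where 4.46% and 4.49% of all genes rose and fell. The count of 4 fell to 0 without IL-17A replicate 2, to 1 without replicate 1 of the combination, and to 2 without IL-17A replicate 1 or replicate 2 of the combination. With the p threshold alone, Lyve1 and Gpnmb passed as well. Among the 6 resident and lipid-associated markers the differences ran from -0.62 (Lyve1) to 0.51 (Trem2), and Gpnmb was 0.44 lower (log2 fold change -0.44 ± 0.12, adjusted p = 0.0197). Added to IL-36γ, IL-17A changed none of the 10 genes by edgeR or by DESeq2, where 0.0103% of all genes were called. At an unadjusted p below 0.05 there were 3, where 15.1% of all genes passed: Arg1 (1.3 ± 0.55, adjusted p = 0.297), Nos2 (1.27 ± 0.5, adjusted p = 0.273) and Retnla (-2.85 ± 0.84, adjusted p = 0.175). For the resident markers the 95% intervals of that difference were narrower, from -0.34 to 0.21 for Mrc1 and from -0.68 to 0.16 for Folr2. Between the single cytokines none of the 10 passed by edgeR or by DESeq2, where 1.61% of all genes did, and 5 had an unadjusted p below 0.05, where 25% of all genes had: Chil3 (1.41, adjusted p = 0.0677), Mrc1 (0.40), Folr2 (0.59), Lyve1 (-0.57) and Gpnmb (-0.30), each as IL-36γ minus IL-17A. The difference of Chil3 passed without PBS replicate 1 (adjusted p = 0.0482) or 3 (adjusted p = 0.0169).

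Whether the effects of both cytokines add up on the log2 scale was tested with the interaction, the effect of the combination minus the sum of the single effects. As the dose of each cytokine in the combination is not stated, a lower dose of each cannot be told apart from an interaction. None of the 10 genes passed (adjusted p below 0.05) in edgeR, where 0.551% of all genes did, and 5 had an unadjusted p below 0.05, where 22.5% of all genes had, all 5 with negative estimates. They were Mrc1 (-0.84 ± 0.18, adjusted p = 0.0572), Folr2 (-1.13 ± 0.28, adjusted p = 0.068), Chil3 (-2.07 ± 0.64, adjusted p = 0.102), Cd163 (-1.08 ± 0.35, adjusted p = 0.11) and Retnla (-3.08 ± 1.09, adjusted p = 0.132). DESeq2's likelihood ratio test called Mrc1 (-0.82, adjusted p = 0.000691) and Folr2 (-1.11, adjusted p = 0.00234), in a test that called 1817 genes in all against 107 by edgeR. In edgeR, Mrc1 and Folr2 passed without PBS replicate 1 (adjusted p = 0.0322 and 0.03), where 1534 genes passed in all, and Mrc1 without replicate 3 of the combination (adjusted p = 0.0459). Arg1 (0.66 ± 0.80) and Nos2 (1.74 ± 0.82, adjusted p = 0.23) had positive estimates that did not pass. The median over the 10 genes was -0.64, and over all genes -0.07.

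To set the markers against other macrophage genes, each was expressed as a percent of the summed CPM of Adgre1 (F4/80), Csf1r, Cd68 and Mertk. Whether this sum follows the amount of macrophage RNA was not tested. That sum was 251, 260 and 241 CPM in PBS libraries, 388, 310 and 345 CPM in ears given IL-17A, 529, 475 and 477 CPM in ears given IL-36γ, and 447, 440 and 448 CPM in ears given both. Against it, Gpnmb went from 34.7, 35.1 and 37.1% in PBS libraries to 15.9, 17.9 and 13.9% after the combination. Lyve1 went from 18.8, 16.8 and 12.2% to 7.97, 8.16 and 7.13%. Neither overlapped between those groups (exact permutation test, two-sided, p = 0.1 each, the smallest that 3 against 3 libraries allow). The sum itself was higher in all libraries of the combination than in all PBS libraries. A gene with unchanged CPM would therefore also fall as a percent of it. In CPM, Lyve1 and Gpnmb changed by -0.22 and -0.34 on the log2 scale. How many of all genes would fall in the same way was not tested. Mrc1 went from 78.8, 87.8 and 77.6% to 93.6, 87.9 and 114%, a log2 difference of 0.27 (exact p = 0.1). The log2 differences of Chil3 and Arg1 were 3.49 and 1.71, again without overlap (exact p = 0.1 each), and those of Folr2, Trem2 and Cd163 were 0.38, 0.35 and -0.44, with overlap.

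The direction differed with the macrophage gene used for 4 of the 10. Adgre1 itself rose more than the others (1.82 on the log2 scale after the combination, adjusted p = 4.63e-06), whereas Csf1r was 0.56 higher (adjusted p = 0.000214) and Mertk 0.27 lower (log2 fold change -0.27, adjusted p = 0.0475). Set against Adgre1 alone, Mrc1 (-0.73), Folr2 (-0.62), Trem2 (-0.65) and Nos2 (-0.46) were lower after the combination, and set against Csf1r alone they were higher (0.53, 0.65, 0.62 and 0.80). Lyve1 (-2.02 and -0.75), Gpnmb (-2.17 and -0.91), Cd163 (-1.44 and -0.18), Arg1 (0.71 and 1.97) and Chil3 (2.49 and 3.76) had the same sign with either gene, as had Retnla (-4.26 and -3.00). Groups overlapped for Arg1 and Nos2 against Adgre1 alone (exact p = 0.5 each) and for Cd163 (exact p = 0.7) and Retnla (exact p = 0.2) against Csf1r alone.

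**Figure D4:**
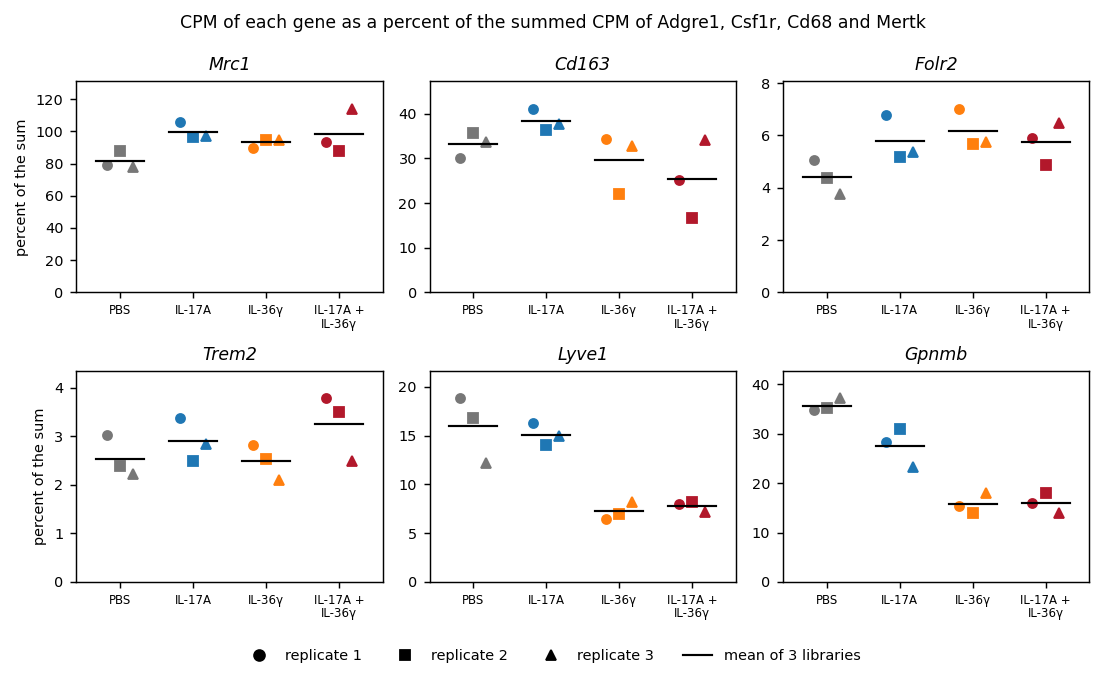
CPM of 6 genes as a percent of the summed CPM of Adgre1, Csf1r, Cd68 and Mertk in the 12 libraries, on axes that start at 0. Points are libraries, shaped by replicate number, and bars are means of 3 libraries. Gpnmb and Lyve1 lie lower in all libraries with IL-36γ, between 13.9 and 17.9% and between 6.47 and 8.23%, than in all PBS libraries, while Mrc1, Folr2 and Trem2 lie close to or above them. The sum itself is higher in all libraries with IL-36γ than in all PBS libraries, so that unchanged CPM also gives a lower percent.

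Other macrophage genes, taken from lists without the 10, showed which of these patterns were shared. In the order IL-17A, IL-36γ and combination, 1, 9 and 7 of 12 pan-macrophage genes rose, and none fell, where 1.07%, 5.11% and 7.35% of all genes rose. The largest rises after the combination were those of Fcgr1, the high-affinity IgG receptor (3.06, adjusted p = 0.000258), and Tyrobp, the signalling adaptor of TREM receptors (1.84, adjusted p = 2.86e-05). The interaction was negative and passed the p threshold in 5 of the 12 by edgeR, where 0.551% of all genes passed, and in 7 by DESeq2. Interaction calls over all genes were unstable, at 107 in full and 1 to 1534 with 1 library left out. Of 8 monocyte genes, 2, 6 and 5 rose, led by Ly6c2 (4.88, adjusted p = 3.25e-05) and Plac8 (3.68, adjusted p = 3.81e-05), both markers of inflammatory monocytes. The list median after the combination was 1.21 for pan-macrophage and 2.44 for monocyte genes, beside -0.03 over all genes. Neutrophil genes rose as well, and the part of neutrophil RNA in the rises of these lists was not tested. The lists were chosen with earlier results of these libraries known, so their counts are not independent evidence.

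The classical and the alternative lists differed in their counts. Of 14 classical activation genes tested, 4, 7 and 11 rose in the same order and none fell (median 1.49 after the combination). Of all genes, 1.07%, 5.11% and 7.35% rose and 1.03%, 1.98% and 6.06% fell, also beside the lists that follow. The part of neutrophil or keratinocyte RNA in the rises of the classical list was not tested. Their leaders were the formyl peptide receptor gene Fpr2 (5.28, adjusted p = 0.000159), which neutrophils also express, and the cytokine gene Il6 (3.75, adjusted p = 0.000152). Of 13 alternative activation genes, 0, 1 and 2 rose, and 2 fell after the combination (median -0.08). For the 0 after IL-17A, edgeR had 1 gene at an unadjusted p below 0.05 and DESeq2 called 0. Clec7a, the β-glucan receptor dectin-1 (2.78, adjusted p = 0.000421), and the IL-4 receptor gene Il4ra (1.13, adjusted p = 0.000741) rose. The lectin gene Mgl2 (CD301b), also expressed by dermal dendritic cells, fell from 46.9 ± 12.8 to 8.63 ± 4.78 CPM (SD, n = 3, log2 fold change -2.43, adjusted p = 0.000184 by edgeR), and the eosinophil-attracting chemokine gene Ccl24 fell by 1.09 (adjusted p = 0.00329). Within the alternative programme, Chil3, Arg1, Mrc1 and Clec7a thus rose after the combination, while Retnla, Mgl2 and Ccl24 fell. Differences between lists were not tested here or for the lists that follow.

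Of 17 resident macrophage genes tested, 1, 4 and 3 rose and 1 fell after the combination, with a median of -0.08, and 11 had an unadjusted p below 0.05 after the combination. Ccl8, a chemokine of dermal macrophages (2.31, adjusted p = 8.11e-05), and the lectin gene Clec4n (dectin-2, 2.13, adjusted p = 9.43e-05) rose. Timd4, a phosphatidylserine receptor of long-lived resident macrophages, fell by 1.65 (adjusted p = 0.0015) from a low level of 0.994 ± 0.235 CPM (SD, n = 3). Of 13 lipid-associated genes, 0, 1 and 2 rose, namely Fabp5, a fatty acid binding protein that keratinocytes also express (2.13, adjusted p = 0.000318), and Spp1, osteopontin (1.52, adjusted p = 0.00717), with a median of 0.17. For the 0 after IL-17A, 7 had an unadjusted p below 0.05 in edgeR and DESeq2 called 0, and after the combination 8 had. The counts of this list lie near the shares of all genes.

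**Figure D5:**
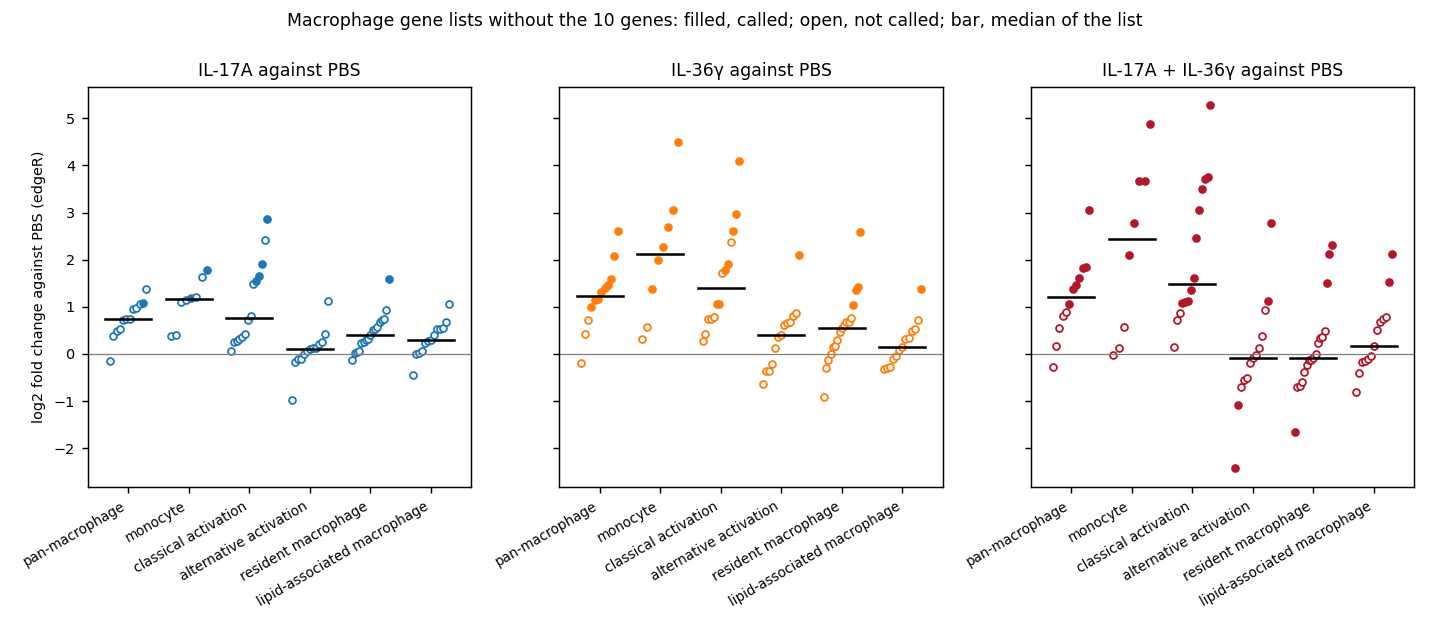
log2 fold changes against PBS (edgeR) of the genes of 6 macrophage lists without the 10 genes, for IL-17A, IL-36γ and the combination. Each point is a gene, ordered by its value within its list, filled where it passed both thresholds, and bars are list medians. Monocyte, pan-macrophage and classical activation medians lie above 1 after IL-36γ and after the combination, while those of the alternative, resident and lipid-associated lists lie between -0.08 and 0.56 in those comparisons.

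Arginine and polyamine metabolism is the pathway around Arg1 and Nos2. Of its 14 other genes tested, none passed both thresholds in either single cytokine group by edgeR or DESeq2, and after the combination 1 rose and 1 fell, a share near the 7.35% and 6.06% of all genes. With an unadjusted p below 0.05 there were 7, 9 and 11 of the 14 after IL-17A, IL-36γ and the combination (edgeR). Ass1, argininosuccinate synthase, which rebuilds arginine from citrulline, rose from 24 ± 4.47 to 49.9 ± 9.13 CPM (SD, n = 3, log2 fold change 1.06, adjusted p = 0.000446 by edgeR). The next enzyme, Asl, was 0.50 higher (adjusted p = 0.000359). Nos1, the neuronal synthase that skeletal muscle also expresses, fell by 2.38 (adjusted p = 0.00384). Arg2, the mitochondrial arginase, had a log2 fold change of 0.45 (adjusted p = 0.065), the arginine transporter gene Slc7a2 was lower (-0.67, adjusted p = 0.000197), and Odc1, which makes putrescine from ornithine, was lower too (-0.43, adjusted p = 0.0102).

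In the families of Chil3 and Retnla, 4 of 9 other genes were abundant enough to be tested. Chil1, encoding the chitinase-like protein YKL-40 that neutrophils and macrophages secrete, rose in all 3 cytokine groups, from 45.2 ± 13.3 CPM in PBS ears to 132 ± 6.15 CPM with IL-17A, 611 ± 104 CPM with IL-36γ and 954 ± 127 CPM with both (SD, n = 3, log2 fold change of the combination 4.40, adjusted p = 1.32e-06 by edgeR). Chit1, chitotriosidase, rose after the combination (1.06, adjusted p = 0.00056). Retnlg, the resistin-like gene of neutrophils and bone marrow, rose after the combination by 3.59 (adjusted p = 0.000151), while Retn fell as given above. The resistin-like family was thus split, with Retnlg up and Retnla and Retn down after the combination. Neutrophil genes moved alongside Retnlg, Chil1 and Chil3. The neutrophil list, which includes Retnlg, summed to 114 to 204 CPM in PBS ears and 7710 to 10200 CPM after the combination. Of its 11 genes tested, 9 rose, led by S100a8 and S100a9. The paper names macrophages and keratinocytes beside neutrophils as sources of the proteins of S100a8 and S100a9. Activated keratinocyte genes summed to 325 to 530 CPM in PBS ears and 6580 to 11200 CPM after the combination. The part of keratinocyte or macrophage RNA in the neutrophil sum was not tested. The part of neutrophil RNA in the level of Chil3 was not tested.

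Of 6 other TREM family genes and adaptors tested, 0, 3 and 5 rose (for the 0 after IL-17A, 1 had an unadjusted p below 0.05 in edgeR and DESeq2 called 0), led by Treml2 (3.96, adjusted p = 0.000242) and Trem1 (3.31, adjusted p = 0.00744), the amplifying receptor of neutrophils and monocytes. Trem2, with 1.18, had a smaller change than either. Of 9 other scavenger and endocytic receptors, 2, 2 and 1 rose, and 1 fell after the combination. Msr1, the class A scavenger receptor, rose (2.04, adjusted p = 1.94e-05), whereas Scara5, which stromal cells express, fell by 1.34 (adjusted p = 9.66e-05). Stab1, a scavenger receptor of resident macrophages, had a log2 fold change of 0.23 (adjusted p = 0.0528). Of 12 genes of the IL-4, IL-13 and IL-10 axis tested, 1, 4 and 5 rose, led by Il10 (2.13, adjusted p = 0.0013) and the shared receptor gene Il2rg (1.58, adjusted p = 1.86e-05). The mRNAs of the inducing cytokines Il4 and Il13 had too few counts to be tested, with group means from 0.138 to 0.253 CPM and from 0.047 to 0.215 CPM.

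Genes of other cells of the ear gave the setting. Of 4 eosinophil genes tested, 3 rose after IL-36γ and 3 after the combination, led by Siglecf (2.72, adjusted p = 0.000951) and Ccr3 (2.30, adjusted p = 0.000532), while the granule gene Epx had too few counts to be tested. The sum of that list was 3.24 to 7.84 CPM in PBS ears, 8.61 to 15.2 CPM with IL-36γ and 4.86 to 8.86 CPM with both cytokines, so that the last overlapped PBS. None of 7 blood endothelial, 6 mast cell or 5 fibroblast genes passed both thresholds against PBS in any of the 3 comparisons by edgeR or DESeq2. For the combination, 5, 2 and 2 of them had an unadjusted p below 0.05 in edgeR. Of 7 dendritic cell genes, 1 (Ccr7) rose after the combination, and of 4 Langerhans cell genes, 1 (Cd207) fell. Basal and suprabasal keratinocyte genes summed to 13100 to 18400 CPM in PBS ears and 28800 to 34600 CPM after the combination, where 2 of 6 rose and 1 fell, and 5 of 6 activated keratinocyte genes rose, led by Sprr2b and Stfa1.

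Within the 10 genes, the pair with the most similar course over the 12 libraries was Mrc1 and Folr2, with a root mean square difference of 0.177 between their centred log2 CPM, followed by Lyve1 and Gpnmb (0.231) and Mrc1 and Trem2 (0.285). Among all genes tested, those near to Mrc1 included Tlr7 (0.128) and Fcgr3 (0.129), against a spread of Mrc1 around its own mean of 0.484. Nearest to Folr2 were Mrc1, C1qc (0.178) and Tlr7 (0.184), and nearest to Cd163 were Cbr2 (0.189), Rnaset2a (0.199) and Cd209f (0.21). Trem2, a myeloid receptor, had keratinocyte genes among its nearest, namely Lgals7 (0.139) and Krt14 (0.162), after Slc25a48 (0.125). Arg1 lay nearest to AA467197 (0.449), Fabp5 (0.474) and Ubash3a (0.484), Chil3 to Gm9733 (0.419), Gm5150 (0.592) and Sirpb1a (0.604), and Gpnmb to Rgma (0.069), Tenm4 (0.078) and Ston1 (0.08). For Lyve1 the nearest were Gng11 (0.155), Vdac3-ps1 (0.156) and 2610301B20Rik (0.162), for Nos2 E230032D23Rik (0.374), Samd12 (0.405) and Cemip (0.415), and for Retnla 2310002L09Rik (0.517), Ckm (0.536) and Atp2a1 (0.543). These values used a prior count of 2. With 0.5, 2 of the 3 nearest genes were shared for Arg1, Nos2, Retnla and Lyve1, and 3 of 3 for the others. They are descriptions over 12 libraries that also share their treatment and their mix of tissues.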

How the data were processed

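Ear skin RNA of 12 mice was sequenced (stranded total RNA kit, paired reads of 76 cycles). For alignment to mm10 the authors used STAR 2.5.2b, and for counts per Ensembl gene featureCounts (Subread 1.5.1). The deposited table holds raw counts, 1 column per mouse. The annotation release and the strand setting are not given in the sources used here. The authors' 5 further tables hold DESeq2 fold changes and p-values of their comparisons, and only their gene symbols were used. Counts were scaled with TMM and tested in 1 fit of the 12 libraries by edgeR 4.0.16 (quasi-likelihood test, genes kept by filterByExpr with a minimum count of 10), with Benjamini-Hochberg adjustment over 19408 genes in each of 7 comparisons. RPKM used GENCODE exon lengths. On simulated counts the test recovered 98% of 200 genes changed by 2 on the log2 scale for IL-17A + IL-36γ against PBS, and 85% for the interaction. Groups follow the sample labels. The replicates of a group differed by more than sampling noise. All members are named, and of each list the 2 genes with the highest and the 2 with the lowest change among those called after the combination, plus the families of Chil3 and Retnla; other list genes named (Asl, Arg2, Slc7a2, Odc1, Stab1, Il4, Il13, Epx, Ccl21a and the genes of the macrophage sum) were added for context after their values were seen. Of the 3 genes nearest to Mrc1, 1 is not reported here. The members and lists were chosen with earlier results of these data known. Alternatives were DESeq2 1.42.0 (likelihood ratio test), other scalings and filters, 2-group fits, a replicate block and each library left out.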

Additional observations from a re-analysis of the deposited data

How the results depend on the processing

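Of the alternative values for the log2 fold changes of the 10 genes, 930 kept direction and call, 24 gained a call, 29 lost one and 6 changed sign, all 6 without a call in either setting. For the combination against IL-36γ, IL-36γ against IL-17A and the interaction, only genes with an unadjusted p below 0.05 in edgeR's main fit were included. These were 3, 5 and 5 of the 10. The other genes of those comparisons are not in the tally, and their sign changes were not counted. Leaving out libraries, Gpnmb after IL-17A ranged from -0.05 to 0.21 (-0.08 by library size only), Retnla after IL-17A from -0.30 (no PBS replicate 1) to 0.87, Retnla after IL-36γ from -0.15 (no PBS replicate 1) to 1.03, and Cd163 in the combination against IL-17A from -0.51 to 0.01. With library size only, the median of all genes moved from 0.04, -0.02 and -0.03 to -0.13, -0.16 and -0.17 in the 3 comparisons with PBS, and from -0.07 to 0.11 for the interaction. Relative to Adgre1 alone, Mrc1 (-0.73), Folr2 (-0.62), Trem2 (-0.65) and Nos2 (-0.46) reversed. The cause was not tested for any change listed here. Genes at few counts (Nos2, Retnla) lost calls most often, in 5 and 6 of 18 alternatives against PBS.

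Genes of the 10 called by setting were as follows. The combination against PBS gave 7, but 8 without a fold threshold, 5 with 2 groups fitted or at least 10 counts in every library, 6 by library size only or with the replicate block, and 5 to 7 leaving out libraries. IL-17A against PBS gave 1, but 0 with 2 groups fitted, 3 without a fold threshold and 0 to 1 leaving out libraries. IL-36γ against PBS gave 3, but 5 without a fold threshold and 3 to 5 leaving out libraries. The combination against IL-17A gave 4, but 2 with at least 10 counts in every library, where Nos2 and Retnla could not be tested, and 0 to 4 leaving out libraries. The combination against IL-36γ gave 0, but 1 (Retnla) with no filter. IL-36γ against IL-17A gave 0, but 1 (Chil3) with no filter or with 2 groups fitted, and 0 to 1 leaving out libraries. The interaction gave 0, but 3 (Chil3, Mrc1, Folr2) with no filter, 2 (Mrc1, Folr2) with the replicate block or DESeq2, and 0 to 2 leaving out libraries.

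Over all genes, the interaction gave 107 calls, but 38 with DESeq2-type size factors, 3 by library size only, 462 with no filter, 883 with the replicate block, 1817 with DESeq2, and 1 to 1534 leaving out libraries (1534 without PBS replicate 1). The combination against IL-36γ gave 2, but 0 by library size only, with at least 10 counts in every library, with the replicate block or with 2 groups fitted, 4 without a fold threshold, 82 with no filter, 90 with DESeq2, and 0 to 62 leaving out libraries. IL-17A against PBS gave 407, but 9 with 2 groups fitted, 2120 without a fold threshold and 11 to 913 leaving out libraries. Without a fold threshold IL-36γ against PBS gave 5519, the combination against PBS 8664, the combination against IL-17A 6355 and IL-36γ against IL-17A 1548, the last with 69 to 392 leaving out libraries (313 in full). The labels do not say whether replicate numbers pair the mice. With group means subtracted, same-numbered libraries correlated between -0.2 and 0.35 over 18 pairs, 9 of them over 0.1. Of the 12 libraries, 8 correlated best with their own number. Whether libraries of the same number share anything besides the number was not tested. With the replicate block Arg1 after IL-36γ gained a call (1.39, adjusted p = 0.0309) and Retnla after the combination lost its call (-2.41, adjusted p = 0.0524). Depth limits Nos2, at 1 to 32 counts a library.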
